A study of Mus musculus with 28 samples.

Results

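The clustered protocadherins are 58 of the 26581 genes measured in the developing dorsal lateral geniculate nucleus (dLGN) of the mouse. They were taken by gene name, as every Pcdha, Pcdhb and Pcdhg gene of the 3 clusters that lie one after the other on chromosome 18. The alpha cluster holds 14 genes (36930285 to 37187661, GRCm38, plus strand), the beta cluster 22 (37264998 to 37521419) and the gamma cluster 22 (37661945 to 37841873). The 5 C-type genes at the ends of the alpha and gamma clusters (Pcdhac1, Pcdhac2, Pcdhgc3, Pcdhgc4 and Pcdhgc5) are described apart, which leaves 12 alpha, 22 beta and 19 gamma genes, the last made of 12 of the a type and 7 of the b type.

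The dLGN is the thalamic nucleus that passes retinal input on to the visual cortex. Wild-type C57BL/6J mice, males and females kept in standard housing with no further treatment, were killed at embryonic day 18 (E18) or postnatal day 4, 10, 16, 20, 27 or 32 (P4 to P32), with 4 mice and 4 libraries at each of the 7 ages. The nucleus was cut out of vibratome slices by eye, and its total RNA was freed of ribosomal RNA and sequenced. Each library goes by its age and its column number (3 to 6); its sex is not given here.

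Each clustered protocadherin is a cell-surface adhesion protein, and combinations of them give single neurons a molecular identity by which branches of one neuron avoid each other. In the alpha and gamma clusters every gene has its own promoter and its own large variable exon, which carries the outside of the protein, and this exon is spliced to 3 exons shared by the whole cluster, which carry the inside end. Beta genes are single variable exons without a shared part. Most promoters are chosen at random in each neuron, with CTCF and cohesin binding at the promoters and at distant enhancers, whereas C-type genes are regulated differently and are used by many neurons at once.

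Depth ran from 8224851 to 40206549 reads per library, with 16938 (P27 library 6) to 24149 genes detected. The summed counts of all clustered protocadherins were between 0.365% and 0.986% of the library total. That sum may hold reads of the exons shared within a cluster once for each gene, so it is not a share of distinct reads. Neuron and relay neuron markers were present at every age. Summed neuron markers (7 of 7 measured) lay between 4573 and 6184 CPM (reads scaled to the size of the library) at E18 and between 3789 and 5792 at P32. Single markers moved in both directions from E18 to P32. At an adjusted p under 0.05 in edgeR's quasi-likelihood test, 3 of the 7 rose and 3 fell. Of 6 relay neuron markers 2 rose and 2 fell, and of all genes 46.7% passed. The summed oligodendrocyte markers (7 of 8 measured) averaged 129 CPM at E18, 2392 at P10, 28395 at P16 and 26642 at P32, while markers of immature neurons and progenitors (8 of 8) averaged 7421, 1964, 505 and 278 CPM at these ages. Astrocyte markers (8 of 8) averaged 335, 3224, 5394 and 4442 CPM at the same ages. Choroid plexus markers (5 of 5) averaged 406 CPM at E18 and 12.7 CPM at P32. Inhibitory neuron markers (8 of 8) ran from 327 to 2378 CPM among the P32 libraries. In tissue RNA, fewer cells of a type and less RNA per cell cannot be told apart, and the part of these markers in the results was not tested.

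The deposited counts of alpha and gamma genes contain the shared exons. The deposited length of Pcdha1 is 5248 bases over 4 exons, of which 2860 bases lie in the 3 alpha exons that the GENCODE annotation of GRCm38 gives to all alpha genes (37156155 to 37156213, 37159265 to 37159353 and 37184946 to 37187657). The 3 gamma exons (37825021 to 37825079, 37833265 to 37833353 and 37839903 to 37841873) hold 2119 bases. The rule by which reads in these exons were assigned is not stated in the sources used. Within a library the highest alpha gene had between 1.26 and 1.60 times as many reads as the lowest, and the highest gamma gene 1.33 to 1.58 times, whereas the mean level of beta genes (Pcdhb1 apart) ran from 3.61 to 28.1 CPM, a 7.78-fold range. The alpha genes therefore move nearly as 1 value, and so do the gamma genes, so that a count of called alpha genes is close to a single observation. The lowest gene of a cluster is used below as the level of the shared exons, and the reads of a gene above that lowest gene, in the same library, as a measure closer to its own variable exon. The lowest gene was Pcdha8 in 20 of 28 libraries for alpha and Pcdhgb1 in 12 of 28 for gamma.

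The alpha cluster had its highest mean level at P4 and lay below every E18 library from P20 on. In libraries 3, 4, 5 and 6 the lowest alpha gene stood at 211, 158, 131 and 126 CPM at E18, at 214, 225, 195 and 182 CPM at P4, and at 172, 194, 150 and 160 CPM at P10. The corresponding values were 46.8, 111, 98.1 and 145 CPM at P16 and 58.0, 62.9, 78.1 and 57.1 CPM at P20. All P20 libraries lay below all E18 libraries, and P16 spread most widely, with library 3 lowest. At P27 the values were 53.3, 73.9, 83.9 and 81.5 CPM, and at P32 they were 58.8, 85.3, 94.6 and 57.5 CPM, so that the last 3 ages overlapped.

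The gamma cluster moved far less over the same libraries. Its lowest gene stood at 217, 191, 154 and 142 CPM at E18, at 206, 242, 202 and 194 CPM at P10 and at 143, 226, 201 and 262 CPM at P16. The values were 126, 165, 199 and 141 CPM at P20, 135, 194, 176 and 170 CPM at P27 and 148, 193, 151 and 148 CPM at P32. The E18 and P32 libraries overlapped fully. The mean over the 22 beta genes ran only from 10.7 ± 0.739 CPM at P16 to 13.1 ± 0.989 CPM at P4 (SD, n = 4 libraries per age), although single beta genes moved in both directions, as given further on.

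**Figure D1:**
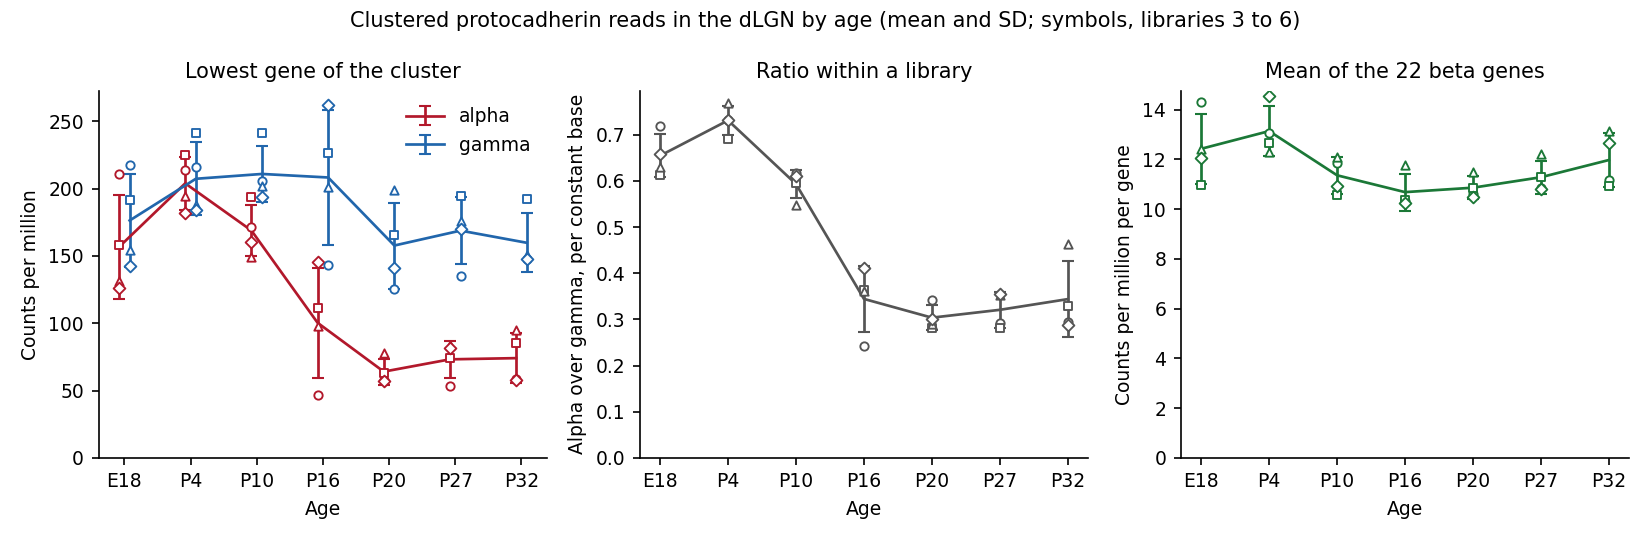
Level of the 3 clusters at the 7 ages. Left, lowest alpha and lowest gamma gene of each library in CPM; middle, their ratio within a library per base of shared exon; right, mean CPM of the 22 beta genes. Lines and bars are means and SD of 4 libraries and symbols are libraries. The ratio is 0.549 to 0.770 from E18 to P10 and 0.243 to 0.464 from P16 on.

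The ratio of alpha to gamma within a library does not depend on the scaling between libraries. Per base of shared exon it was 0.718, 0.612, 0.631 and 0.658 at E18 (0.655 ± 0.0462, SD, n = 4), 0.731 ± 0.0321 at P4 and 0.593 ± 0.0312 at P10. It was 0.243, 0.364, 0.361 and 0.411 at P16 (0.344 ± 0.0715), 0.304 ± 0.0265 at P20, 0.321 ± 0.0388 at P27 and 0.344 ± 0.0821 at P32. None of the 12 libraries from E18 to P10 overlapped any of the 16 libraries from P16 to P32. P16 library 3, with the lowest ratio, had the highest summed oligodendrocyte markers of its age (39996 CPM, against 18467 in the lowest P16 library). P32 library 5, with the highest ratio of its age (0.464), had the highest summed relay neuron markers (4851 CPM, against 1034 in the lowest P32 library). The library with the highest relay neuron markers also had the highest ratio at P27, but not at P16 or P20. The library with the highest oligodendrocyte markers also had the lowest ratio at P32, but not at P20 or P27. The part of cell composition in these ratios was not tested.

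Gene by gene, P32 was tested against E18 with edgeR's quasi-likelihood test on the 8 libraries, with p-values adjusted over all genes tested. Of the 57 members tested, 2 were higher, 18 lower and 37 did not pass an adjusted p of 0.05. Among all genes 46.7% passed, 24.1% higher and 22.6% lower. The members' share was below that background in total and for rises, but above it for falls. Of the 18 falls, 12 were alpha genes and 2 alpha C-type genes. These are close to a single observation, so the members' share is not comparable with a share counted gene by gene. The groups did not overlap for 24 members, 4 higher and 20 lower, against 44.4% of all genes. Pcdhb1 was too low to be tested, at no more than 0.973 CPM in any E18 or P32 library.

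All 12 alpha genes and both alpha C-type genes fell from E18 to P32. Pcdha7, among the highest alpha genes, had 230, 177, 150 and 167 CPM in E18 libraries 3 to 6 and 63.5, 90.5, 98.7 and 61.8 CPM in P32 libraries 3 to 6. Its log2 fold change was -1.21 (SE 0.21, adjusted p = 0.000529 by edgeR's quasi-likelihood test). Log2 fold changes of the 12 genes ran from -1.21 (Pcdha5 and Pcdha7) to -1.05, with a median of -1.10 and adjusted p from 0.000529 to 0.00192 in that test. Pcdha9 stood at -1.14, Pcdha12 at -1.05 and Pcdha1, the first of the cluster, at -1.06. The narrow range is that of genes counted with the same shared exons.

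No gamma gene outside the C-type passed in that comparison. The 19 log2 fold changes lay between -0.21 and -0.11 (median -0.16), with adjusted p between 0.375 and 0.672 by edgeR's quasi-likelihood test. These small negative values depend on the scaling. With library totals alone, the median log2 fold change of all genes moved from -0.01 to -0.30. That setting called 30 members lower, among them Pcdhga10, Pcdhga11, Pcdhga12, Pcdhgb6 and Pcdhgb7, against 6044 of all 18539 genes tested.

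**Figure D2:**
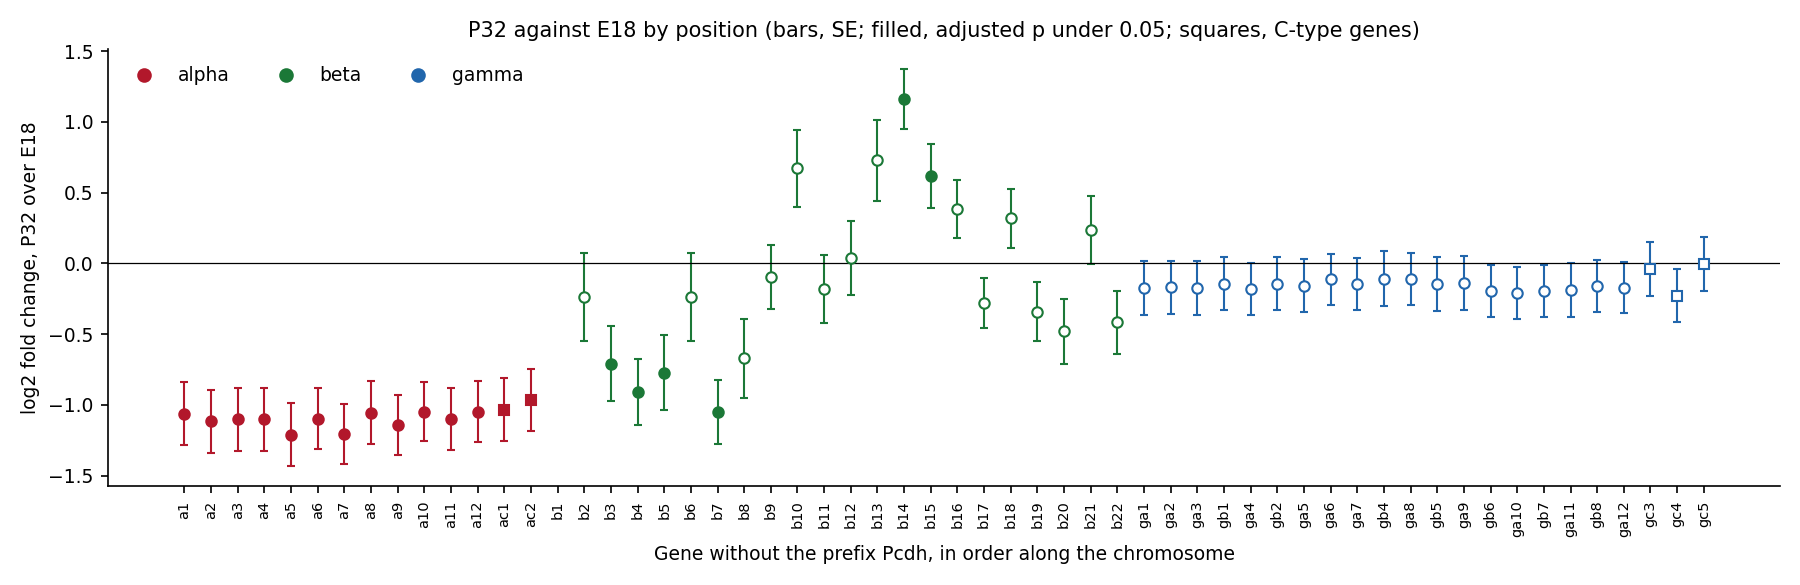
Log2 fold change of P32 over E18 for the 58 genes in their order along the chromosome. Bars are standard errors, filled symbols have an adjusted p under 0.05 and squares are C-type genes; Pcdhb1 was not tested. Alpha genes form a level row near -1.1 and gamma genes one near 0, and beta genes scatter from -1.05 to 1.16.

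Between adjacent ages, which share libraries from one comparison to the next, no member passed edgeR's quasi-likelihood test without a block. Of all genes, 7.87% passed for P4 against E18, 18.4% for P10 against P4 and 11.9% for P16 against P10. At the looser limit of an unadjusted p under 0.05 there were 3, 6 and 15 members in these comparisons. The share of all genes at that looser limit is not given here, so these counts have no background to be read against. Of all genes 0.0% passed in P20 against P16, 0.0% in P27 against P20 and 0.0% in P32 against P27. In these 3 comparisons 14, 0 and 0 members had an unadjusted p under 0.05, again without a share of all genes. Of the 14, 12 were alpha genes, which are close to a single observation. DESeq2 called 0, 3, 13, 0, 0 and 0 members in the 6 comparisons, all lower at the later age. Of all genes it called 1996 of 17694 lower in P10 against P4 and 1372 of 17457 lower in P16 against P10.

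P16 against P10 was the step at which alpha values separated. All 12 alpha genes and both alpha C-type genes had every P16 library below every P10 library, as had 17.4% of all genes in either direction. The median log2 fold change of the 12 was -0.76, with adjusted p from 0.0649 to 0.0977 by edgeR's quasi-likelihood test. A fit of all 28 libraries together called all 14 lower, against 4.48% of all genes, and DESeq2 called 13 of them lower, against 7.86%. Leaving out P16 library 6, the P16 library with the most alpha reads, gave 14 lower calls. Each of the 7 other libraries left out in turn gave 0, as did relative log expression factors and no filter on low counts. The gamma genes had a median of -0.04 in this comparison and beta genes one of -0.03. From P16 to P20 the alpha median was -0.62 and the gamma median -0.38, and no gene of either group separated. Their adjusted p was 0.993 throughout in edgeR's quasi-likelihood test.

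For P4 against E18 and P10 against P4, libraries of the same column number tended to deviate together, least so number 5 in the second comparison (correlation 0.194). A fit with that number as a block therefore stands beside the main one. With the block 17 members were higher at P4 than at E18 (15.8% of all genes were): all 14 alpha-cluster genes, Pcdhgc3, Pcdhgc4 and Pcdhb13. With the block 16 members were lower at P10 than at P4 (18.1% of all genes were), 11 of them alpha genes and the others Pcdhb3, Pcdhb7, Pcdhb9, Pcdhb19 and Pcdhb20. Of these, Pcdhb3, Pcdhb7, Pcdhb9, Pcdhb13, Pcdhb19 and Pcdhb20 are named after their values were seen. The median log2 fold change of the alpha genes was 0.35 in the first step and -0.28 in the second.

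Of the C-type genes, Pcdhac2, Pcdhgc3 and Pcdhgc4 had means above those of all other genes of their clusters in reads above the lowest gene at every age. Pcdhac1 and Pcdhgc5 did not: at E18 they averaged 8.01 and 0.383 CPM, against 24.4 CPM for Pcdha7 and 27.1 CPM for Pcdhga11. C-type genes held 30.1% ± 6.37 of all alpha reads above the lowest gene at E18, 52.1% ± 11.46 at P10 and 44.7% ± 6.15 at P32, and 36.3% ± 1.24, 47.5% ± 3.12 and 45.3% ± 6.72 of those of gamma (SD, n = 4). Their own time courses differed from each other.

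Pcdhgc5, the last gene of the gamma cluster, came up from near the shared level. Its reads above the lowest gamma gene were 0, 0, 1.12 and 0.414 CPM in E18 libraries 3 to 6, which is 0, 0, 25 and 14 reads. In E18 libraries 3 and 4 it was itself the lowest gene. The values were 3.19, 3.55, 3.32 and 1.21 CPM at P4, 3.77, 5.49, 6.04 and 1.33 CPM at P10 and 8.86, 13.3, 12.2 and 11.4 CPM at P16. Every P16 library was above every P10 library, and at P32 the values reached 13.2, 24.4, 14.3 and 15.9 CPM.

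In a fit with alpha and gamma counts replaced by reads above the lowest gene, Pcdhgc5 was higher at P16 than at P10 by 1.48 on the log2 scale (SE 0.38, adjusted p = 0.0241 by edgeR's quasi-likelihood test). That call was lost without P10 library 3 or P16 library 4 or 5 (adjusted p up to 0.0627). It was also higher at P32 than at E18 (adjusted p = 0.000218 in the same kind of fit, and at most 0.00159 with each single library left out), where the fitted fold change depends on counts near 0 and is not given. Its share of all gamma reads above the lowest gene went from 0.135% ± 0.189 at E18 to 6.02% ± 0.828 at P32 (SD, n = 4). Its whole count hid this, at 177 ± 34.0 CPM at E18 and 177 ± 26.9 CPM at P32 (log2 fold change -0.00, adjusted p = 0.987 in edgeR's quasi-likelihood test).

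**Figure D3:**
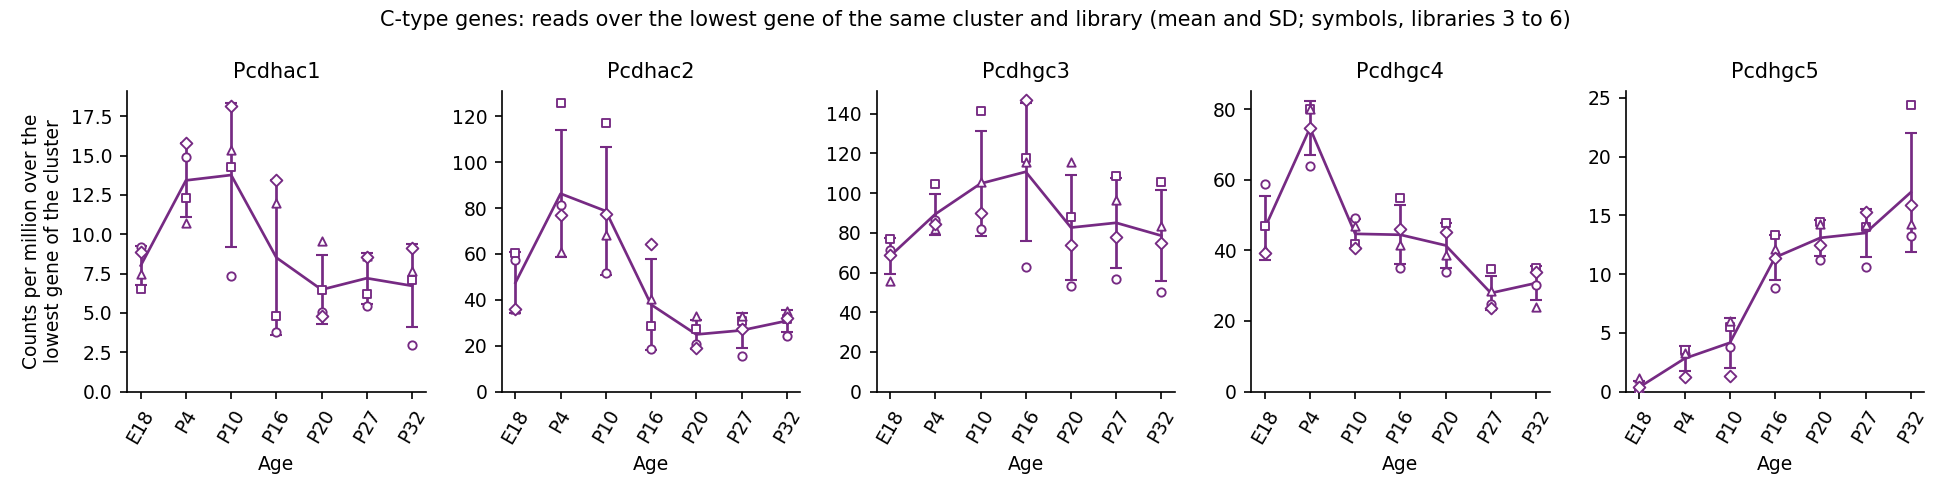
Reads of the 5 C-type genes above the lowest gene of their cluster in the same library, in CPM, at the 7 ages, with means and SD of 4 libraries and symbols for libraries. Each panel has its own axis from 0. Pcdhgc5 goes from at most 1.12 CPM at E18 to at least 13.2 at P32, and Pcdhgc4 has its highest values at P4.

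Pcdhgc4, which is needed for the survival of many neurons in mice, had a single high age. Its reads above the lowest gene were 58.9, 46.9, 40.0 and 39.3 CPM at E18, 63.8, 80.1, 80.0 and 74.6 CPM at P4 and 49.3, 41.8, 46.9 and 40.7 CPM at P10. All P4 libraries were above those of both neighbouring ages. It rose from E18 to P4 by 0.68 on the log2 scale (SE 0.17, adjusted p = 0.0326) and fell from P4 to P10 by 0.73 (SE 0.14, adjusted p = 0.00392) in edgeR's quasi-likelihood test. The rise did not pass with library totals (0.061) or without E18 library 5 or 6 or P4 library 4, 5 or 6 (up to 0.131), and the fall kept passing with each single library left out (up to 0.0215). At P32 it stood at 30.2, 34.9, 24.0 and 33.8 CPM, below every E18 library, a log2 fold change of -0.60 (SE 0.20, adjusted p = 0.028 in that test, and 0.0894 without E18 library 3).

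Pcdhac2, the last gene of the alpha cluster, was the C-type gene with most alpha reads of its own. Its mean moved in the direction of the lowest alpha gene, up at P4 and down at P32. The 11 alpha genes tested outside the C-type differed from it in reads above the lowest gene. Their median log2 fold change was -0.16 from E18 to P4 (5 above 0, 6 below) and -1.37 from E18 to P32. In such reads Pcdhac2 had 57.4, 60.5, 35.9 and 36.1 CPM at E18, 81.5, 126, 61.0 and 76.9 CPM at P4 and 24.2, 31.8, 35.2 and 32.1 CPM at P32. The P32 libraries lay below all E18 libraries, though 35.2 CPM was close to the lowest E18 value. The log2 fold change from E18 to P32 was -0.63 (SE 0.22, adjusted p = 0.0359 in edgeR's quasi-likelihood test), and it did not pass without any 1 of E18 libraries 3 or 4 or P32 libraries 3, 4 or 6 (adjusted p up to 0.0971). In whole counts Pcdhac2 fell by 0.97 (SE 0.22, adjusted p = 0.00299) and Pcdhac1 by 1.03 (SE 0.22, adjusted p = 0.0022) in that test.

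Pcdhac1 and Pcdhgc3 did not pass from E18 to P32 in reads above the lowest gene. Pcdhac1 had 9.20, 6.52, 7.47 and 8.85 CPM at E18, 14.9, 12.3, 10.7 and 15.8 CPM at P4 and 2.99, 7.11, 7.68 and 9.11 CPM at P32. Its P4 values all exceeded those of E18 (log2 fold change 0.73, adjusted p = 0.0491), a call lost with relative log expression factors, library totals, no filter and in 7 of the 8 fits without 1 library, all but that without P4 library 5 (adjusted p up to 0.162), while P32 overlapped E18 (-0.27, adjusted p = 0.528, edgeR's quasi-likelihood test). Pcdhgc3, the gamma gene with most reads of its own, had 71.5, 77.0, 55.8 and 68.7 CPM at E18, 63.0, 118, 116 and 147 CPM at P16 and 49.996, 106, 83.5 and 74.9 CPM at P32. The libraries spread more widely at P16 and P32 than at E18, and P32 spanned the whole E18 range (log2 fold change 0.19, SE 0.22, adjusted p = 0.493 in that test).

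Exact two-sided permutation of the 4 E18 and 4 P32 libraries, for which 0.0286 is the smallest p possible, was run on 10 values and left unadjusted. In whole CPM Pcdhac1 and Pcdhac2 gave the exact p of 0.0286, Pcdhgc3 0.857, Pcdhgc4 0.171 and Pcdhgc5 1.0. In reads above the lowest gene Pcdhac2, Pcdhgc4 and Pcdhgc5 gave the exact p of 0.0286, Pcdhac1 0.514 and Pcdhgc3 0.429.

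Other alpha and gamma genes differed in the size of their reads above the lowest gene. Outside the C-type, Pcdha7, Pcdha9, Pcdha5 and Pcdha12 together held 60.7% of the alpha reads of this kind at E18 and 47.7% at P32. Pcdha12 alone held 13.1% at E18 and 21.8% at P32, where it was the highest of the 12. Of 11 alpha genes tested outside the C-type, 8 fell from E18 to P32 and none rose (median log2 fold change -1.37), among a total of 13 lower and 1 higher of 35 alpha and gamma genes tested, Pcdhgc5 being the 1 higher. Of all genes in that fit, 22.6% were lower and 24.0% higher.

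Pcdha7 had 19.7, 18.5, 19.1 and 40.2 CPM above the lowest alpha gene at E18, 6.72, 5.75, 8.96 and 11.03 CPM at P10 and 4.72, 5.19, 4.14 and 4.35 CPM at P32. E18 library 6 was far above the other libraries of its age, and no P32 library reached 6 CPM. Its log2 fold change was -2.41 (SE 0.29, adjusted p = 3.35e-05 in edgeR's quasi-likelihood test). Pcdha9 had 20.6, 15.05, 16.3 and 23.4 CPM at E18 and 5.90, 4.57, 4.44 and 7.63 CPM at P32, a log2 fold change of -1.74 (SE 0.26). Both genes kept all P32 libraries below all E18 libraries. Pcdha5 had 15.7, 16.7, 11.4 and 30.4 CPM at E18 and 1.77, 4.33, 1.73 and 0.0 CPM at P32, being the lowest gene itself in P32 library 6 (log2 fold change -3.26, SE 0.73, adjusted p = 0.00291 in that test). Pcdha12, the last alpha gene before the C-type, had 14.5, 16.8, 17.0 and 19.9 CPM at E18 and 6.87, 12.6, 11.1 and 10.5 CPM at P32, and fell least of the 8 (log2 fold change -0.74, SE 0.24, adjusted p = 0.0213 in that test, and 0.0599 without E18 library 6). For comparison, the median log2 fold change of whole counts, which hold the shared exons, was -1.10.

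In the gamma cluster Pcdhga11, Pcdhga12 and Pcdhga10, near its downstream end, had the most such reads outside the C-type at E18. Together they held 32.3% of them at E18 and 28.1% at P32. Another annotated gene, Gm26672 on the other strand, lies over the variable exons of all of these genes and of Pcdhgb7. Its part in their reads was not tested. Pcdhga10 had 18.1, 17.8, 16.02 and 20.4 CPM above the lowest gamma gene at E18 and 8.59, 10.3, 6.18 and 11.2 CPM at P32, with no overlap (log2 fold change -0.998, SE 0.24, adjusted p = 0.00409 in edgeR's quasi-likelihood test). Pcdhga11 had 33.9, 30.5, 25.7 and 18.2 CPM at E18 and 20.2, 24.0, 14.9 and 17.3 CPM at P32. Its groups overlapped (log2 fold change -0.51, SE 0.24, adjusted p = 0.0991 in that test). Pcdhga12 had 18.1, 18.7, 17.6 and 24.2 CPM at E18 and 12.7, 17.7, 10.1 and 18.1 CPM at P32 (adjusted p = 0.162), and Pcdhga1, the first of the cluster, had 15.3, 17.5, 9.49 and 7.16 CPM and 5.05, 11.4, 8.36 and 6.55 CPM (adjusted p = 0.121, edgeR's quasi-likelihood test).

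Of 12 a-type genes 2 fell. Among the 7 b-type genes, Pcdhgb6 had 16.5, 18.3, 17.002 and 19.8 CPM at E18 and 16.2, 12.1, 8.58 and 4.50 CPM at P32, without overlap but above the threshold (log2 fold change -0.79, SE 0.33, adjusted p = 0.065 in edgeR's quasi-likelihood test, and 0.0102 without P32 library 3). Pcdhgb4 stayed between 0 and 10.8 CPM at both ages, near the shared level. The 1 b-type gene that fell was Pcdhgb7, which had 15.8, 10.2, 17.4 and 16.2 CPM at E18, 1.14, 0.576, 2.59 and 2.23 CPM at P16 and 10.4, 6.36, 5.72 and 7.99 CPM at P32. It was lowest at P16, and at P32 library 3 overlapped the lowest E18 library (log2 fold change -0.96, SE 0.27, adjusted p = 0.0116 in that test).

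**Figure D4:**
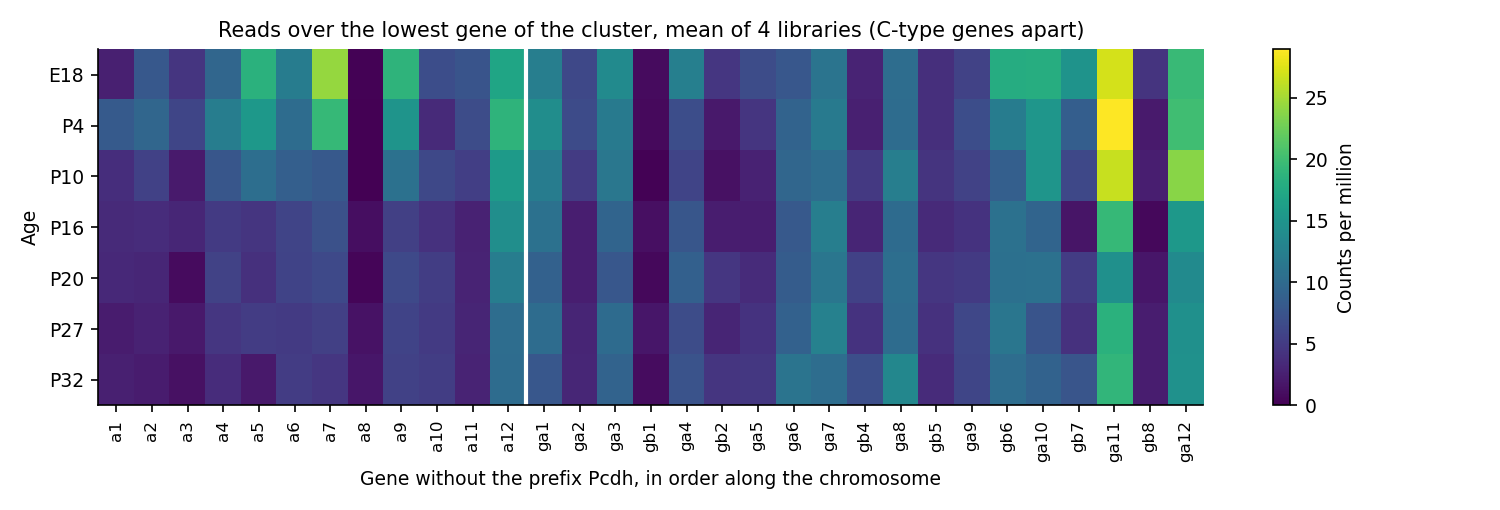
Mean reads above the lowest gene of the cluster (4 libraries, CPM, colour scale from 0) at the 7 ages for the 31 alpha and gamma genes outside the C-type, in order along the chromosome. Pcdha7 goes from 24.4 at E18 to 4.60 at P32, and Pcdhga11 is the highest gene of the map from E18 on.

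Fewer of these genes passed between adjacent ages. From E18 to P4, Pcdhac1 and Pcdhgc4 were higher (4.77% of all genes were) and Pcdhgb7 and Pcdhga4 lower (3.12%). From P4 to P10, Pcdha3, Pcdha4, Pcdha7 and Pcdhgc4 were lower (8.2%), and from P10 to P16, Pcdhgc5 was higher (6.19%) and Pcdha5, Pcdhgb7 and Pcdhga10 lower (5.65%). Pcdha3, Pcdha4 and Pcdhga4 are named after their values were seen. Without each single library in turn, 0 of the 4 calls from E18 to P4 were kept throughout, 2 of 4 from P4 to P10 (Pcdha7 and Pcdhgc4) and 1 of 4 from P10 to P16 (Pcdhgb7). With the block, 6 genes were higher (15.7%) and 8 lower (13.5%) at P4 than at E18, and 8 were lower (18.1%) at P10 than at P4. From P16 on no gene passed in the adjacent comparisons of edgeR's quasi-likelihood test. At an unadjusted p under 0.05 there were 2, 1 and 1 genes, and the share of all genes at that limit is not given.

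Beta genes carry no shared exon, so each count belongs to its own gene as far as near-identical copies allow. Reads of these close relatives could be split by the counting, which makes the values of single beta genes uncertain. From E18 to P32, 2 of 21 beta genes tested rose, 4 fell and 15 did not pass, a smaller share called than the 46.7% of all genes. The 4 that fell lie in the upstream part of the cluster and the 2 that rose in its downstream part. Other settings break this split: the fit of all 28 libraries also called Pcdhb10, upstream, higher and Pcdhb19 and Pcdhb20, downstream, lower, and library totals called Pcdhb17, Pcdhb19, Pcdhb20 and Pcdhb22 lower. Of these, Pcdhb10, Pcdhb19 and Pcdhb20 are named after their values were seen.

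Pcdhb14 rose most. It had 11.1, 8.05, 9.93 and 7.84 CPM at E18, 12.5, 15.1, 10.6 and 11.7 CPM at P4, 17.6, 17.1, 17.7 and 15.4 CPM at P10 and 19.96, 20.1, 22.5 and 20.4 CPM at P32. Every P10 and every P32 library was above every E18 library. The log2 fold change from E18 to P32 was 1.16 (SE 0.21, adjusted p = 0.000677 in edgeR's quasi-likelihood test). Its neighbour Pcdhb15 had 9.65, 6.78, 7.61 and 7.87 CPM at E18 and 12.05, 11.9, 10.8 and 14.4 CPM at P32, without overlap (log2 fold change 0.62, SE 0.23, adjusted p = 0.0395). That call was lost without E18 library 4, 5 or 6 or P32 library 3, 4 or 6 (adjusted p between 0.0682 and 0.122) and with library totals (0.266), relative log expression factors (0.0501) or no filter on low counts (0.0859).

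The 4 falls were Pcdhb3, Pcdhb4, Pcdhb5 and Pcdhb7, named after their values were seen. Pcdhb7 had 18.6, 15.5, 15.6 and 12.7 CPM at E18, 15.4, 14.3, 12.4 and 15.7 CPM at P4, 5.88, 6.26, 7.13 and 6.83 CPM at P16 and 7.88, 6.43, 8.81 and 7.06 CPM at P32. It kept to its E18 level at P4 and lay below every E18 library at P16 and P32 (log2 fold change from E18 to P32 -1.05, SE 0.23, adjusted p = 0.00231 in edgeR's quasi-likelihood test). Pcdhb4 went from 9.58 to 10.9 CPM at E18 to between 4.42 and 6.18 CPM at P32 (log2 fold change -0.91, SE 0.23, adjusted p = 0.00686). Pcdhb4 did not pass in the fit of all 28 libraries (0.137). Pcdhb5 stood at -0.77 (adjusted p = 0.0292) and Pcdhb3 at -0.71 (adjusted p = 0.0446) in that test, and both lost the call without E18 library 3, 5 or 6 or P32 library 4 or 6 (up to 0.0962).

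The most abundant beta genes did not pass. Pcdhb16 had 32.3, 19.8, 24.5 and 25.1 CPM at E18 and 31.5, 27.6, 35.8 and 38.2 CPM at P32, with overlap (log2 fold change 0.38, SE 0.21, adjusted p = 0.144). Pcdhb17 had 30.6, 33.4, 28.5 and 28.5 CPM at E18 and 23.6, 22.9, 28.2 and 25.3 CPM at P32, and the ages barely failed to overlap (-0.28, SE 0.18, adjusted p = 0.212). Pcdhb18 stood at 0.32 (adjusted p = 0.229) and Pcdhb22, the last of the cluster, at -0.42 (adjusted p = 0.146), all by edgeR's quasi-likelihood test.

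**Figure D5:**
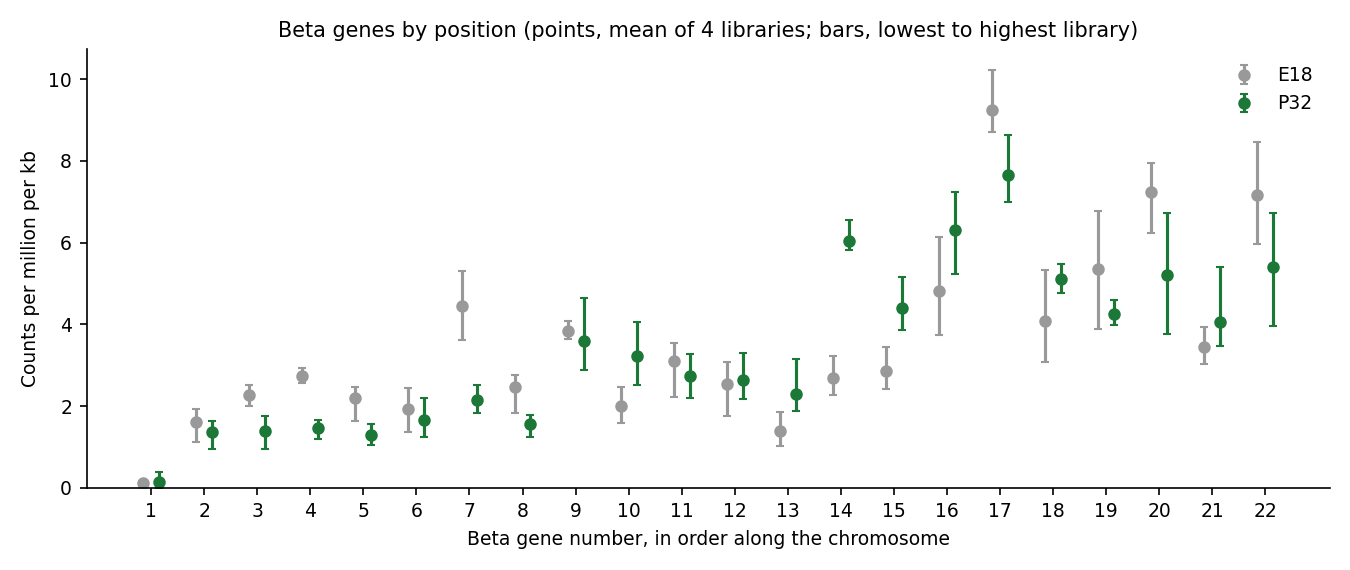
Level of the 22 beta genes in CPM per kilobase at E18 and P32, in order along the chromosome. Points are means of 4 libraries and bars run from the lowest to the highest library. Pcdhb1 is near 0 at both ages, Pcdhb3, Pcdhb4, Pcdhb5 and Pcdhb7 are lower at P32 and Pcdhb14 and Pcdhb15 higher.

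Beta genes near the downstream end of the cluster had the higher levels. Over the 21 beta genes other than Pcdhb1, order in the cluster and mean CPM per kilobase had a Spearman rho of 0.864 and a Pearson r of 0.802, across genes that share libraries and are not independent. Order and log2 fold change from E18 to P32 had a rho of 0.36 and an r of 0.389. Among the 10 genes tested at positions 2 to 11, 0 rose, 4 fell and 9 had a log2 fold change below 0 (median -0.45). Among the 11 at positions 12 to 22, 2 rose, 0 fell and 7 were above 0 (median 0.24). This split was chosen after the values were seen. In alpha and gamma, order and reads above the lowest gene per kilobase of variable exon had a rho of 0.392 (12 genes) and 0.304 (19 genes).

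Promoter choice in the clusters depends on CTCF, cohesin and DNA methylation. Of 17 genes of this machinery, 2 rose and 5 fell from E18 to P32, with a median log2 fold change of -0.27. Of all genes 46.7% were called, and this count, like those of the lists given next, is to be read against that share; nothing particular to a list was tested. Wapl, which releases cohesin from DNA, went from 69.2 ± 14.0 to 142 ± 35.5 CPM (log2 fold change 1.04, SE 0.22, adjusted p = 0.00219). Dnmt3b, the DNA methyltransferase that methylates protocadherin promoters in mouse embryos, went from 4.22 ± 0.526 to 1.56 ± 0.41 CPM (-1.43, SE 0.34, adjusted p = 0.00415). From P4 to P10, 1 of the 17 rose and 2 fell, while 18.4% of all genes were called. The rise was that of Dnmt3a, a more abundant DNA methyltransferase, from 336 ± 53.8 to 549 ± 43.7 CPM (0.71, SE 0.15, adjusted p = 0.00684). Ctcf, which binds the promoters, fell in that step from 64.5 ± 3.17 to 47.7 ± 1.10 CPM (-0.44, SE 0.12, adjusted p = 0.0266, all in edgeR's quasi-likelihood test with n = 4 per age).

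Other protocadherins and cadherins changed in both directions. Of 12 protocadherins outside the clusters, 3 rose and 3 fell from E18 to P32 (median log2 fold change -0.38), with Pcdh9 going from 367 ± 91.8 to 808 ± 78.3 CPM and Pcdh18 from 42.4 ± 8.88 to 8.45 ± 4.84 CPM. Of 14 intracellular partners and processing genes, 4 rose and 2 fell. Among them Ptk2b, the kinase Pyk2 that the shared ends of alpha and gamma proteins bind and inhibit, went from 1.31 ± 0.326 to 91.1 ± 34.2 CPM (log2 fold change 6.09, SE 0.37, adjusted p = 1.45e-07 in edgeR's quasi-likelihood test). Of 18 classical cadherins and catenins, 6 rose and 5 fell.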

How the data were processed

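RNA of 28 dLGN libraries was analysed from 12 deposited tables, 2 for each pair of adjacent ages. Read counts per gene and library are whole numbers made by the authors and were used as deposited. The authors' fold ratio, p-value and adjusted p-value in the deposited tables served only as an alternative. Per the submitters' processing notes, BWA, edgeR 3.14.0 and GRCm38 (mm10) were used. The sources used here do not name the read counter, the gene models or the strandedness. In the GENCODE annotation 14 members have another annotated gene over their variable exon, 11 of these only on the other strand. Pcdha7, Pcdha12, Pcdhga1, Pcdhga10, Pcdhga11, Pcdhga12, Pcdhgb7 and Pcdhgc3 are among them. Their reads above the lowest gene could hold reads of the overlapping gene, which was not tested. A further 96 columns of read density per library were not used.

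Each pair of ages was fitted on its 8 libraries with edgeR 4.0.16 (R 4.3.3): filterByExpr, TMM, glmQLFit and glmQLFTest, two-sided, Benjamini-Hochberg over every gene tested. Single-library CPM and age means come from TMM factors of all 28 libraries; fold changes, SE and adjusted p come from the pairwise fits. Means of genes outside the clusters are those of the pairwise fits. Reads above the lowest gene are the count minus that of the lowest alpha or gamma gene in the same library. DESeq2 1.42.0, other scalings, no filter, a fold minimum, each library left out, and a fixed reference gene (Pcdha8, Pcdhgb1) were alternatives. In simulated counts for P32 against E18, the edgeR test called 114 of 200 changed genes in the right direction, and 7 unchanged genes. A gene that did not pass may therefore still have changed. Reads above the lowest gene were recovered in simulated counts that held a gene without reads of its own, which is not known for these clusters. Intervals are not given for single counts; 3 counts correspond to between 0.0746 and 0.365 CPM.

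Between columns of the same number, deviations of genes from their age means had correlations of 0.382 to 0.681 for P4 and E18. For P10 and P4 they were 0.194 to 0.550, and P4 column 5 was closest to P10 column 3. Every pair was over 0.1, so the block is given for these comparisons. In the later adjacent comparisons columns 3, 4 and 5 also correlated (0.266 to 0.598), but column 6 did not (-0.180 to 0.0131). The labels do not say what the column number marks. The labels' replicate numbers (1 to 4) could not be matched to columns. The labels call the 4 mice of an age independent samples.

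Members, lists and tests were chosen with earlier results of these data known. Named members are the C-type genes, the 3 highest genes by mean CPM of alpha, beta, gamma a and gamma b, the first and last gene of each cluster, and per comparison up to 3 called rises and 3 called falls of largest size among members with a mean of at least 1 CPM. Of each related list, at most 2 called genes per direction and comparison could be named.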

Additional observations from a re-analysis of the deposited data

Results flagged for a closer look

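In 20 of 280 groups of 4 libraries, 1 library lay farther from its nearest neighbour, relative to the range of its group, than the 95% critical value of Dixon's test for 4 samples, which chance alone does in about 1 of 20 groups. P32 library 4, the highest of its age, accounted for 10 of these. It stood at 204 CPM for Pcdhga1, 203 for Pcdhgb4, 203 for Pcdhga10, 199 for Pcdhgb7, 217 for Pcdhga11, 210.3 for Pcdhga12, 228 for Pcdhgc4 and 217 for Pcdhgc5. The other P32 libraries lay between 151.6 and 182 CPM for these genes, whose shared exons make them 1 observation. The lowest gamma gene of that library was at 193 CPM and the mean gamma gene at 202 CPM.

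For Pcdhgb4, P10 library 4 was highest at 248 CPM, and the mean C-type level of that library was highest at 287 CPM. For Pcdha12, P27 library 3 was lowest at 58.9 CPM, against 90.7 to 93.1 CPM in the others. Reads of Pcdhgc5 above the lowest gamma gene were lowest in P4 library 6, at 1.21 CPM and 0.380% of all such gamma reads.

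Among beta genes, Pcdhb14 was highest in P32 library 5 at 22.5 CPM and Pcdhb22 in P4 library 6 at 27.4 CPM. The mean of the beta genes was highest in P16 library 5 at 11.8 CPM. Pcdhb1 was highest in P20 library 4 at 0.425 CPM and in P27 library 5 at 0.212 CPM, near the level of 3 counts.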

How the results depend on the processing

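All 35 alternative values of the alpha to gamma ratio stayed within 1 SD, as did 187 of 196 cluster levels. Most of these values leave out 1 library. With 4 libraries per age this cannot move a mean by 1 SD, so those values could not have failed. The other ratio values used the fixed reference genes, and Pcdha8 was already the lowest alpha gene in 20 of 28 libraries. With library totals the mean alpha level at P4 was 232 CPM and the mean beta level 14.7 CPM at E18, 14.3 at P4, 10.04 at P20 and 10.2 at P27. Without its highest member the mean beta level was 10.6 CPM at P10, 9.90 at P16, 9.98 at P20 and 10.5 at P27.

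Counts of called members changed as follows. With the replicate block 17 were higher at P4 than at E18, and 1 was higher and 16 lower at P10 than at P4, where library totals gave 1 lower and DESeq2 gave 3. At P16 against P10, 14 were lower with library totals, 14 with the replicate block, 14 in the fit of all 28 libraries, 13 with DESeq2 and 9 by the authors' deposited adjusted p. From E18 to P32, 1 was higher with relative log expression factors, library totals, no filter or a log2 fold change of at least 1. The fit of all 28 libraries gave 4 higher. Library totals gave 30 lower, against 6044 of all 18539 genes tested. Leaving out 1 library gave 0 to 1 higher and 0 to 1 lower members at P10 against P4, 0 to 14 lower at P16 against P10 (14 without P16 library 6) and 1 to 3 higher at P32 against E18.

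By reads above the lowest gene, the higher genes at P4 against E18 numbered 1 with relative log expression factors, 0 with library totals, 1 with no filter and 6 with the replicate block, and the lower genes 1 with a fixed reference gene and 8 with the block. The block gave 8 lower genes at P10 against P4, and 2 higher and 8 lower at P16 against P10. Leaving out 1 library gave 0 to 2 higher and 0 to 2 lower genes at P4 against E18, 2 to 5 lower at P10 against P4, 0 to 2 higher and 1 to 4 lower at P16 against P10, and 1 to 2 higher at P32 against E18. The block changed no other count by over 1.5 times.

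From E18 to P32, log2 fold changes near 0 turned sign: Pcdhgc5 to 0.0056 with the replicate block, and over single libraries left out Pcdhgc3 ran from -0.22 to 0.037, Pcdhgc5 from -0.17 to 0.10 and Pcdhgb4 from -0.27 to 0.00080. In reads above the lowest gene Pcdhgc3 was -0.10 with library totals and ran from -0.030 to 0.31, and Pcdha1 ran from -1.03 to 0.56. Pcdhgc4 in whole CPM differed by -78.2 with library totals (exact permutation p = 0.0286). The cause of these changes was not tested. With 4 libraries per age the smallest exact p is 0.0286, and genes with few reads above the shared exons, such as Pcdha1, are not resolved at this depth.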
